A study of Drosophila melanogaster with 3 samples.

Results

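The X chromosome carried 601 of the 3496 reproducible binding peaks of the fusion protein Hr51-eGFP in Drosophila melanogaster embryos. These are the peaks whose chromosome is X in the list that the authors filtered by the irreproducible discovery rate (IDR), a measure of how well peaks rank alike in replicates. They made up 17.2% of the list and were compared with the 660 peaks of 2L, the 718 of 3L and the 831 of 3R in the same list. Chromatin immunoprecipitation sequencing (ChIP-seq) was done on 3 biological replicates that form 1 group, with no second condition. Each replicate was whole embryos of both sexes, aged 0 to 24 h, from a transgenic line, labelled Dhr51-GFP, that stably carries Hr51 joined to GFP at its C-terminal end. Per the description in the labels the fusion was precipitated with an antibody against GFP, although the antibody is entered elsewhere in the labels as Hr51. All cell types of the embryo were pooled, so a peak cannot be assigned to a tissue. The number of reads per sample is not given in the sources used here, so how depth bears on the values is unknown. The signal value that the authors deposited with each peak serves here only to order the peaks of 1 list.

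Hr51, also called unfulfilled, belongs to the NR2E nuclear receptors and is known to be needed for normal mushroom body neurons, which serve learning in the fly. Nuclear receptors bind short DNA core sites, of which AAGTCA is typical of the NR2E group and AGGTCA of many other receptors. The X is present as a pair in females and as 1 copy in males, where the dosage compensation complex with its roX RNAs raises transcription of X genes. The part of X copy number in the peak counts was not tested.

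The 4 strongest promoter peaks of the X and its strongest intron peaks, at CG32772 and Tlk, are shown by their summit sequence. They are among the clearest of the X list and were found in every replicate. Each is the 101 bases centred on the summit, 5′ to 3′ on the plus strand of Release 6 (the dm6 build), taken from RefSeq. Capitals mark matches on either strand to any of the 7 motifs searched. These were TATCGATA (the DREF element), the receptor sites AAGTCA and also AGGTCA, the promoter motif ACACTG known from the factor M1BP, the plain run TTAAAA, the GA repeat GAGAGA and the CA repeat CACACA. They can overlap each other only where their letters allow it.
Ugalt promoter, chrX:2703837-2703937: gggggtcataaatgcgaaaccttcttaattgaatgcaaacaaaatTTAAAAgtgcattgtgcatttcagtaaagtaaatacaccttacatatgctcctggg
ph-p promoter, chrX:2137281-2137381: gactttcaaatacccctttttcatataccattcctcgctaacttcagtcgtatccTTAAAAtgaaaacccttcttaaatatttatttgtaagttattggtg
lncRNA CR44619 promoter, chrX:12751388-12751488: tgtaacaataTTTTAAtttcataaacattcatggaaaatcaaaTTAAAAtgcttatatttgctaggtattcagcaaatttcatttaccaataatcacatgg
Atf3 promoter, chrX:1275426-1275526: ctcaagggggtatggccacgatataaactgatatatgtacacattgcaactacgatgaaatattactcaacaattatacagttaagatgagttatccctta
CG32772 intron, chrX:4910331-4910431: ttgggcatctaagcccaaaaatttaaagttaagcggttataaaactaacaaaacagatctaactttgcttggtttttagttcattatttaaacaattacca
Tlk intron, chrX:3742165-3742265: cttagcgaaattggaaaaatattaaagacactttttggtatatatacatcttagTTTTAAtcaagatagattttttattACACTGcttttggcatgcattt
Neither nuclear receptor site was found in these 6 windows, and a TTAAAA match was found in 4 of them. A missing match says only that these letters are not in this window. The window of the sixth strongest X peak, in another exon, is not shown and also had a TTAAAA match.

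Ugalt, a transporter of UDP-galactose, had the strongest X peak, at chrX:2703685-2704087, with its summit 35 bp upstream of the Ugalt transcription start site (TSS). Its signal was 1481, the rank was 3 in the whole IDR list, and it ranked 3, 2 and 6 in replicates 1, 2 and 3. The second peak lay in an intron of CG32772, 1279 bp downstream of its TSS, with a signal of 976 and ranks of 15, 9 and 8 in the replicates. The third, with a signal of 958, lay inside the gene ph-p, which encodes a subunit of the Polycomb repressive complex PRC1. Its summit was 476 bp upstream of a TSS within that gene. It ranked 10, 11 and 13 in the replicates, so it stood above the CG32772 peak in replicate 1 and below it in replicates 2 and 3. The genes ph-p and ph-d are near-identical neighbours, so the assignment of reads between them is uncertain.

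The fourth and sixth strongest X peaks lay 940 bp apart at the lncRNA gene CR44619, with signals of 775 and 673. The former ranked 21, 16 and 154 in replicates 1, 2 and 3 and the latter 38, 30 and 52, so both were placed lowest in replicate 3. A peak in an intron of Tlk, the Tousled-like kinase, had a signal of 690 and ranks of 28, 32 and 40. Atf3, a bZIP transcription factor, had a promoter peak with a signal of 671 and ranks of 34, 22 and 92. The neuronal RNA-binding protein gene elav had its peak 258 bp upstream of the TSS, with a signal of 478 and ranks of 81, 145 and 59.

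Of the 25 strongest X peaks, 15 were at promoters, 8 in introns, 1 in intergenic sequence and 1 in another exon. All 25 were found in the top lists of all 3 replicates, a top list being the 3496 peaks of highest signal in that replicate. Because the IDR list was made from these replicates, that recovery is not independent of how the peaks were chosen. In every replicate, 11 of them stood among the 100 highest. The other genes of the 25 with roles known in the fly or by homology were MFS10 (a transporter of the major facilitator family), TRAM (protein translocation), LPCAT (phospholipid remodelling), bves (a Popeye domain protein), Raf (a kinase of the MAP kinase pathway), NFAT (a transcription factor), norpA (the phospholipase C of photoreceptors), moody (a receptor of the blood-brain barrier), dnc (the cAMP phosphodiesterase dunce), Zw (glucose-6-phosphate dehydrogenase), bbx (an HMG-box factor) and Ptpmeg2 (a tyrosine phosphatase). The rest of the 25 lay nearest to CG3009, CG17896, CG3726, CG11151 and CG8034. The signals of all 601 ranged from 77.3 to 1481, with a median of 117 and quartiles of 92.8 and 162. The 5 weakest X peaks lay nearest to fog, oc, CG42258, sol and l(1)G0289, and none of them was found in more than 1 top list.

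X peaks were less often at promoters and more often in introns than peaks of the autosomal arms. A summit within 500 bp of an annotated TSS was counted as a promoter peak, and every other summit took the class of the sequence it lay in. Promoters held 322 of the 601 X peaks (53.6%), against 61.1% on 2L, 61.3% on 3L and 65.6% on 3R, and 60.9% over the 4 arms. Introns held 223 X peaks (37.1%), against 24.4% on 2L, 22.1% on 3L and 26.4% on 3R. Intergenic sequence held 39 (6.49%), against 12.9%, 14.2% and 6.62%. The X lay below each other arm in promoter share and above each in intron share, while its intergenic share was near that of 3R.

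Against the other arms together, the promoter share differed by -9.26 percentage points (95% Newcombe interval -13.7 to -4.81; two-sided Fisher's exact test, adjusted p = 0.000345). The intron share differed by 12.7 points (interval 8.51 to 17.0; Fisher's exact test, adjusted p = 1.73e-08). The intergenic share differed by -4.47 points (interval -6.65 to -1.89; Fisher's exact test, adjusted p = 0.00439), a difference that did not pass against 3R alone (-0.129 points; Fisher's exact test, adjusted p = 1). Against single arms, the promoter share was lower on the X with adjusted p = 0.0311 for 2L, 0.0240 for 3L and 6.63e-05 for 3R by Fisher's exact test. Peaks are not independent replicates, and these tests and intervals cover the counting of peaks only.

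Each replicate gave the same order in its own top list. The promoter share on the X was 55.8%, 53.3% and 54.6% in replicates 1, 2 and 3, against 63.3%, 61.4% and 61.1% on the other arms. The difference was -7.39 ± 0.773 points (SD, n = 3), lower on the X in 3 of 3 replicates. The intron share was 34.6%, 36.6% and 36.9% on the X, against 24.3%, 23.9% and 24.6%, a difference of 11.7 ± 1.28 points. An exact sign-flip permutation test over the 3 replicates gave a two-sided p of 0.25 for each, the smallest that 3 replicates allow. No replicate of the X overlapped the 3 replicates of the other arms in either share.

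**Figure D1:**
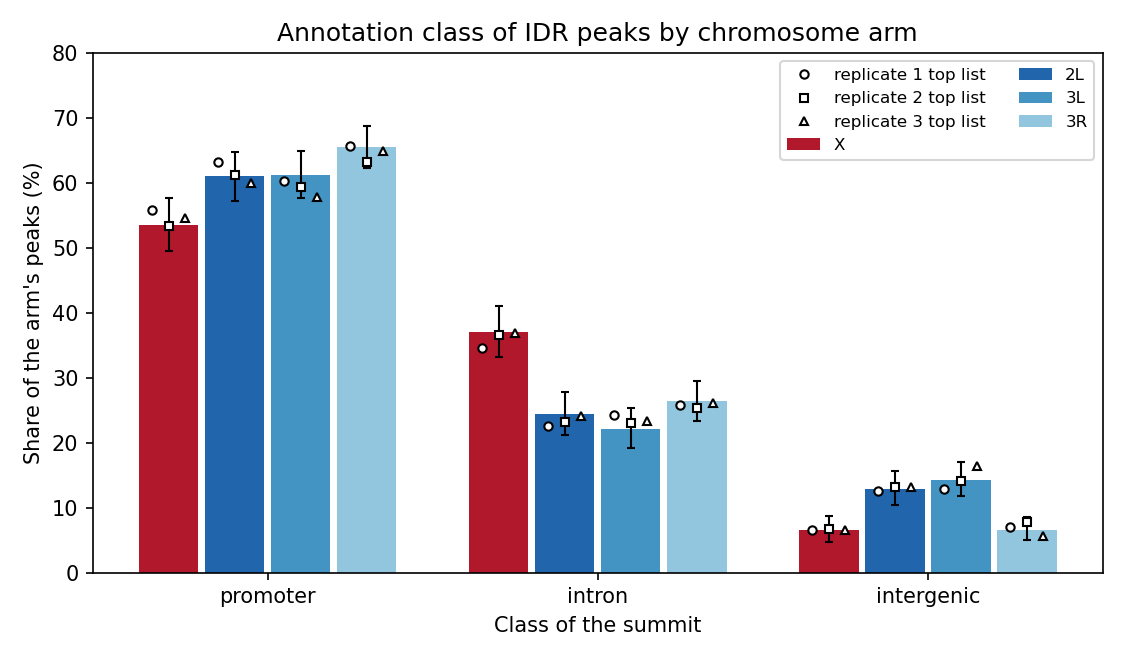
Share of IDR peaks (%, y axis) by class, which is promoter, intron or intergenic (x axis), for X, 2L, 3L and 3R; bars show the IDR list with exact binomial 95% intervals and open symbols the top lists of the 3 replicates. The X bar stands at 53.6% for promoters and 37.1% for introns, below and above all 3 other arms.

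The annotation of the X also differs from that of the other arms, and the part of this in the peak shares was not tested. Windows of 500 bp to either side of a TSS covered 12.6% of the X and 13.6% of the other arms, and intron sequence outside them 43.3% against 39.2%. The median protein-coding gene was 2521 bp long on the X and 2080 bp on the other arms, with 93.3 against 105 such genes per Mb. Intron sequence was 36.5% of 2L, 37.0% of 3L and 43.1% of 3R. Per Mb of intron sequence the X had 21.9 peaks, against 18.8 on 2L, 15.3 on 3L and 15.8 on 3R. This density on the X was 1.33 times that of the other arms together in the IDR list, and 1.27 ± 0.101 times in the replicates (SD, n = 3). Per Mb of promoter windows the ratio was 0.888 in the IDR list and 0.897 ± 0.0420 in the replicates. These densities count each class over the whole arm, ends without summits included, and no test was made of them.

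Weaker entries did not show the lower promoter share. Among the peaks of the pooled list that overlap no IDR peak, which include background, 27.8% of 4173 on the X were at promoters, against 26.0% of 16466 on the other arms. That difference was 1.79 points in the opposite direction (interval 0.294 to 3.32; Fisher's exact test, adjusted p = 0.0216). Introns held 35.1% against 31.7% of them, a difference of 3.40 points (interval 1.80 to 5.03; Fisher's exact test, adjusted p = 0.000139). These 2 values and 7 more below were chosen after their values had been seen, and their p-values were adjusted over the 9.

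The promoter difference was present at the strong end of the list. Among the 874 peaks of highest signal in the list, 75 of 137 on the X were at promoters (54.7%), against 403 of 560 on the other arms (72.0%). The difference was -17.2 points (interval -26.3 to -8.25; Fisher's exact test, adjusted p = 0.000317). Among all the other IDR peaks it was -6.50 points (interval -11.6 to -1.41; Fisher's exact test, adjusted p = 0.0182). The gap between these 2 differences was not itself tested. Among the 874 strongest of replicates 1, 2 and 3, promoters held 80 of 143, 79 of 146 and 65 of 130 X peaks, against 71.0%, 72.2% and 70.2% on the other arms.

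**Figure D2:**
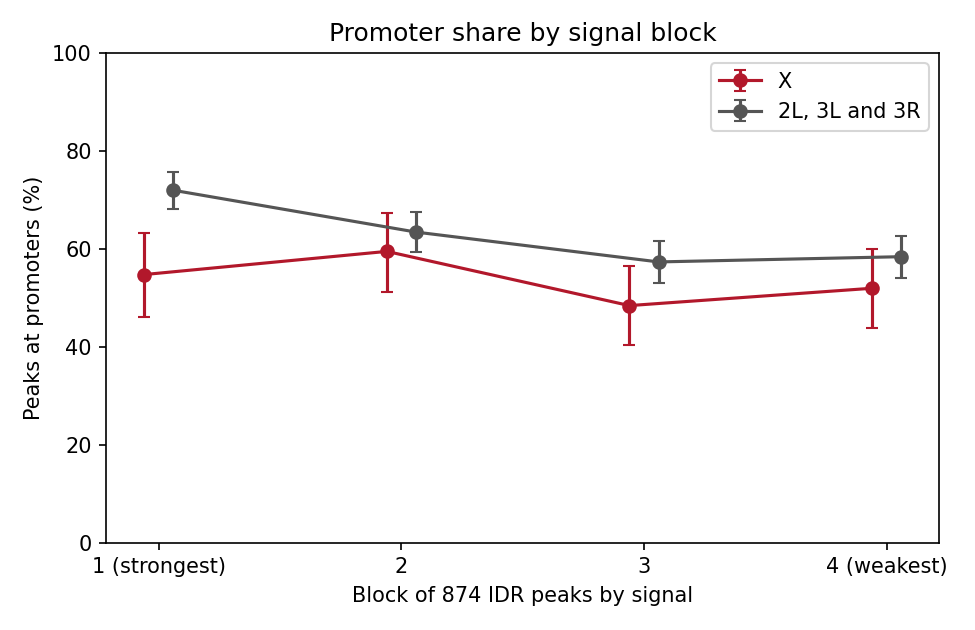
Share of IDR peaks at promoters (%, y axis) in 4 blocks of 874 peaks by signal (x axis, strongest first), for the X and for 2L, 3L and 3R together, with exact binomial 95% intervals. On the other arms the share was 72.0% in the strongest block and 58.4% in the weakest, and on the X it was 54.7% and 51.9%.

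X promoter peaks also sat farther from the start site. The median distance from summit to the nearest TSS was 127 bp on the X, against 89 bp on 2L, 84 bp on 3L and 88 bp on 3R. Of the 322 X promoter peaks, 136 (42.2%) were within 100 bp of a TSS, against 55.9% on the other arms. The difference was -13.7 points (interval -19.5 to -7.62; Fisher's exact test, adjusted p = 9.27e-05), with 41.6%, 44.4% and 42.6% on the X against 57.7%, 55.3% and 49.9% in replicates 1, 2 and 3. The X was lower in every replicate, by the smallest margin in replicate 3. The side of the TSS was alike, since 81.5% of X summits at coding promoters and 80.9% of those on the other arms lay upstream.

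A smaller share of X promoter peaks had coding starts on both strands nearby. Of the 308 X peaks at coding promoters, 96 (31.2%) had coding TSSs on both strands within 500 bp, against 42.7% on the other arms. The difference was -11.5 points (interval -17.1 to -5.54; Fisher's exact test, adjusted p = 0.000335). In the replicates the X share was 29.5%, 31.6% and 26.1%, against 42.1%, 41.4% and 42.3%. Such pairs of starts are also rarer in the X annotation, where 20.8% of coding TSSs have one on the other strand within 500 bp, against 24.5%. A further 14 X promoter peaks were at non-coding genes alone. They include the peaks at lncRNA CR44619, at flam, the flamenco piRNA cluster that silences transposons in the ovary, and at mir-4962.

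**Figure D3:**
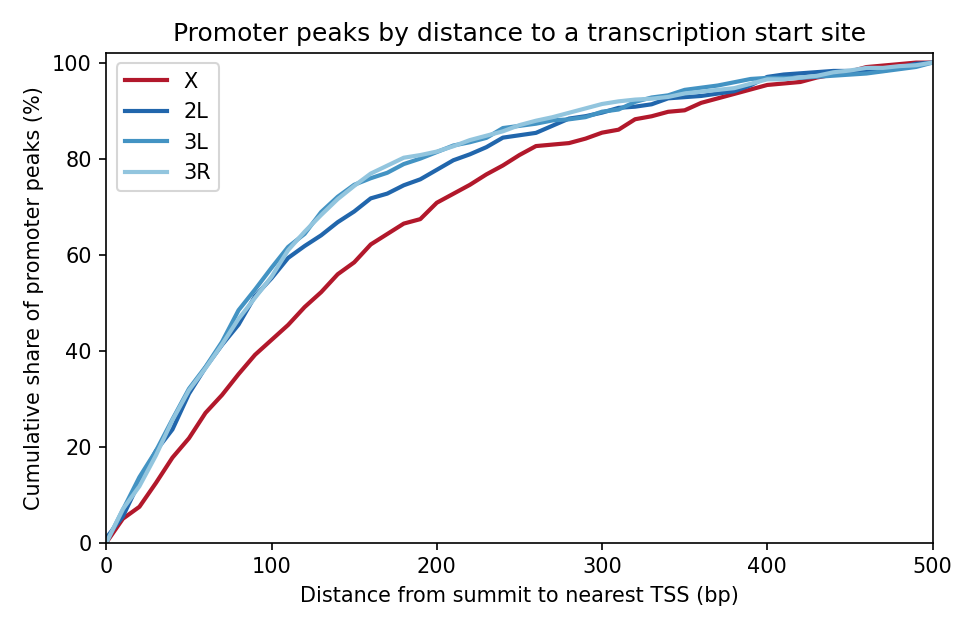
Cumulative share of promoter peaks (%, y axis) by distance from the summit to the nearest TSS (bp, x axis), 1 line per arm. At 100 bp the X line stands at 42.2% and the others between 55.1% and 57.3%, and the lines meet and cross towards 500 bp.

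The intron peaks of the X lay mostly in long genes and often a few kb from a coding TSS. Coding genes held 216 of the 223, in 136 genes, and the median length of the gene around such a peak was 29.9 kb, against 25.8 kb on the other arms. The median distance of intron peaks to the nearest coding TSS was 2264 bp, with quartiles of 1207 and 5635 bp, against 2640 bp. That TSS need not belong to the gene around the peak. All 3 replicates held 118 of the 223. The gene with the most peaks within it was CG1677, with 12 over 125 kb, some of which lay also in the genes Atg5, CBP or Dok. CHES-1-like, a forkhead factor, held 10 over 27.0 kb, and kirre, a cell adhesion protein of myoblast fusion, 10 over 394 kb. Raf held 9, Hr4, a nuclear receptor of the ecdysone response, 8, Tlk and dnc 6 each, and CG14434 5. Genes with at least 5 peaks inside numbered 8 of 2196 on the X and 12 of 8817 on the other arms, a count with no test.

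A smaller share of X genes had a peak at their promoter. It was 376 of 2196 protein-coding genes (17.1%), against 18.2% on 2L, 20.4% on 3L and 20.8% on 3R, and 19.3% over the 4 arms. Against the other arms together the difference was -2.78 points (interval -4.52 to -0.956; Fisher's exact test, adjusted p = 0.0108). Against 2L alone it was -1.09 points and did not pass the threshold (Fisher's exact test, adjusted p = 0.630). In the replicates the X share was 16.8%, 17.4% and 15.2%, against 20.1%, 19.4% and 19.3%.

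Ribosomal protein genes stood out in count among the hand-chosen gene lists, with 14 of the 15 X-linked members having a promoter peak, against 17.1% of all X protein-coding genes. RpL22 had the highest signal of these, 247, and ranked 413, 289 and 765 in replicates 1, 2 and 3. RpL17 had 226 with ranks of 573, 261 and 889, RpS28b 220 with ranks of 514, 242 and 1338, and RpS10b 180 with ranks of 1348, 481 and 949. Each of these 4 stood highest in replicate 2. RpS6 was the exception, with its nearest IDR summit 7407 bp from the TSS, although the top list of replicate 2 held a promoter peak of RpS6. The replicates' top lists held 14, 13 and 11 of the 15. RpS14a and RpS14b are near-identical neighbours, so reads may have been split between them. The ranks run from 402 for RpL22 to 3148 for RpL35, so these promoters were spread over the list and not at its top. All gene lists used here were chosen with earlier results of these data known, so their shares beside 17.1% are descriptions only.

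Of the 18 chromatin genes on the X, 8 had a promoter peak (44.4%, against 17.1% of all X protein-coding genes). After ph-p, the strongest was Hmt4-20, a histone H4 lysine methyltransferase, with a signal of 303 and ranks of 330, 248 and 285. It was followed by fs(1)h, a BET family protein, with 197, and Top1, a DNA topoisomerase, with 190. The fs(1)h summit lay 159 bp from the fs(1)h TSS and 50 bp from that of mys on the other strand. Bap60, ph-d, wapl and Ulp1 were lower, while nej, Hira, wds and mof were among those without a promoter peak. For nej the nearest IDR summit lay 747 bp from the TSS, with a signal of 254 and ranks of 537, 419 and 371. The top lists of replicates 1 and 2 each held a promoter peak of nej. Of 5 listed dosage compensation genes on the X, 1 had a promoter peak, a share near that 17.1%, and this was Top1. The top lists of replicates 1, 2 and 3 held 2, 2 and 1 of the 5, and nej is in this list too. The nearest IDR summit lay 5956 bp from the TSS of roX1, 1441 bp from that of roX2 and 6740 bp from that of mof, the histone acetyltransferase of the complex.

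Of 29 X genes of the hand-chosen neuronal list, 8 had a promoter peak (27.6%, against 17.1% of all X protein-coding genes). They were elav, dnc, sdk, dlg1, Ten-a, if, norpA and Cdc7, of which the last is a replication kinase that stands in the list under an older symbol. The gene if stands also in the list of epidermal and muscle genes. For dnc the ranks in the replicates were 115, 128 and 155, and for sdk, an adhesion protein, 665, 513 and 561. Of 11 mushroom body and learning genes, dnc, ben and Imp had a promoter peak (27.3%), while rut, the adenylate cyclase rutabaga, lay 13208 bp from the nearest IDR summit. The top list of replicate 3 did hold a promoter peak of rut. Imp, an RNA-binding protein, had ranks of 3176 and 675 in replicates 1 and 3 and no match in replicate 2. Of 23 embryonic patterning genes only sgg, the GSK3 kinase, and Sxl had one, so the share, 8.70%, was below the 17.1% of all X genes. The achaete-scute complex had 0 of 4, with the nearest summit 26972 bp from the TSS of ase and 117688 bp from that of ac.

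Of 6 X signal elements and sex determination genes, Sxl, the master switch of female fate, and snf, a splicing protein, had a promoter peak. The Sxl peak ranked 1958, 812 and 1434 in replicates 1, 2 and 3. The snf peak was weak, with ranks of 2034, 3365 and 6900, and lies between snf and Cdk7. In the Notch pathway it was 2 of 8 genes, sgg and the receptor N itself, whose peak ranked 6901, 1338 and 4145 and so was in the top list of replicate 2 alone. The other lists gave 6 of 23 cell cycle and growth genes, 3 of 11 transcription and splicing genes and 6 of 17 epidermal and muscle genes. Over all 12 lists, 46 of 144 X genes (31.9%) had a promoter peak, 14 of them ribosomal protein genes, against 17.1% of all X protein-coding genes. The lists share members and were chosen by hand with results known, so no test was made.

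X peaks were found again in the replicates about as often as those of the other arms. In all 3 top lists 322 X peaks had a summit within 150 bp (53.6%), against 52.6% on the other arms and 52.8% over the 4. The difference was 0.974 points (interval -3.53 to 5.44; Fisher's exact test, adjusted p = 0.786). With the whole relaxed lists of the replicates in place of the top lists, the difference was 3.04 points and passed the threshold (Fisher's exact test, adjusted p = 0.0191). In the top lists, a further 186 were in 2, 89 in 1 and 4 in none. Of the 186, 106 were missing from replicate 3, 45 from replicate 2 and 35 from replicate 1. Among the 874 peaks of highest signal, all 137 on the X were in every top list, and among the 874 of lowest signal 3 of 154 were.

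Replicate 3 ranked X peaks lower than the other replicates did. Its top list held 71.4% of the X peaks, against 74.8% of those on the other arms, while replicates 1 and 2 held 83.9% and 82.2% against 81.8% and 79.3%. The median rank of X peaks was 1774, 1759 and 2023 in replicates 1, 2 and 3, against 1729, 1732 and 1723. The difference in replicate 3, -3.40 points (interval -7.54 to 0.529), did not pass the threshold (Fisher's exact test, adjusted p = 0.0933). In the whole relaxed lists of 30000 peaks, replicate 3 held 98.2% of the X peaks and 96.5% of those on the other arms. Replicates 1 and 2 each held 98.8% of the X peaks, against 98.6% and 97.2%. The part of read depth or library quality was not tested.

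**Figure D4:**
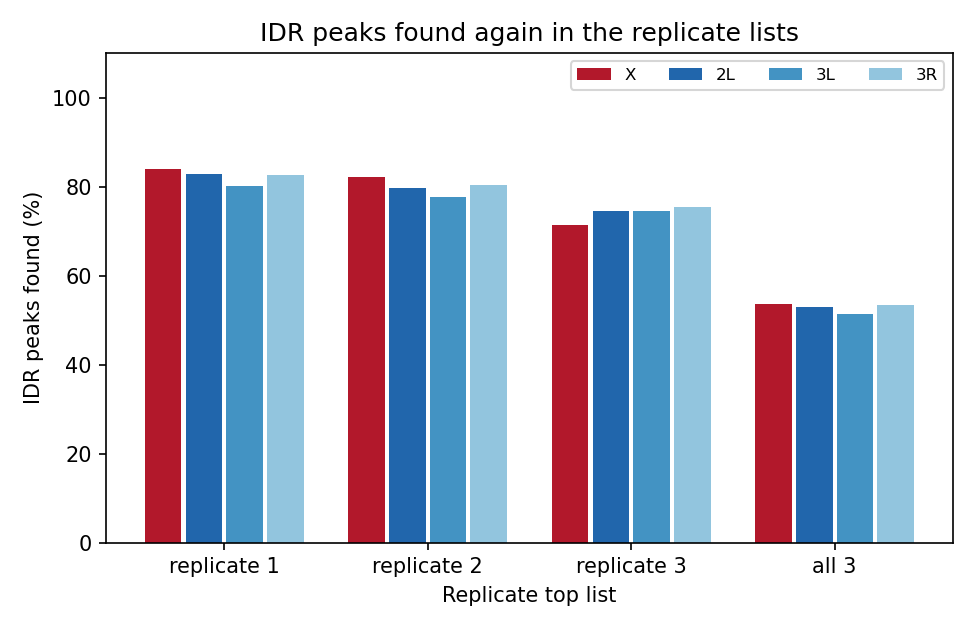
Share of IDR peaks found within 150 bp in the top list of each replicate and of all 3 (%, y axis), by replicate (x axis) and arm. In replicate 3 the X bar, 71.4%, is the lowest, and for all 3 lists the arms lie between 51.4% and 53.6%.

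Over whole arm lengths, the density of peaks on the X was near that of the other arms. It had 25.5 peaks per Mb, against 28.1 on 2L, 25.5 on 3L and 25.9 on 3R. Its density was 0.967 times that of the other arms together, and 0.949, 1.00 and 0.888 times in the top lists of replicates 1, 2 and 3 (mean 0.947 ± 0.0574, SD, n = 3). The IDR value lies within the spread of the replicates, as does equality. These values count arm ends that hold no summit. On the span from the first to the last IDR summit of each arm, the ratio was lower, at 0.870. In stretches of 2 Mb, the X had most peaks from 6 to 8 Mb, with 94, and from 2 to 4 Mb, with 82. Beyond 22 Mb there was 1 peak.

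Summits on the X were less often within 300 bp of another and more often a little farther from it. The median gap between neighbouring summits was 14168 bp on the X and 13430 bp on the other arms. Another summit lay within 2000 bp of 181 X peaks (30.1%), against 27.3%, a difference of 2.86 points that did not pass the threshold (interval -1.14 to 7.06; Fisher's exact test, adjusted p = 0.388). Within 300 bp it was 6.66% against 10.8% (-4.12 points, interval -6.32 to -1.53; Fisher's exact test, adjusted p = 0.00385). Beyond 300 and up to 2000 bp it was 23.5% against 16.5% (6.98 points, interval 3.39 to 10.8; Fisher's exact test, adjusted p = 0.000317). Each of the last 2 differences had the same sign in 3 of 3 replicates. No summit of any arm lay within 158 bp of another, and the X share was already 6.66% at 251 bp. The class within 300 bp thus covers a narrow range of distances, below the median peak width of 420 bp on the X and on the other arms. Whether such close summits are separate sites was not tested. Dropping summits within 300 bp of a stronger one gave a difference of 6.17 points in the share within 2000 bp, which then passed the threshold (Fisher's exact test, adjusted p = 0.00433). The share passed without replicate 2 (6.27 points; Fisher's exact test, adjusted p = 0.0243) and without replicate 3 (6.14 points; Fisher's exact test, adjusted p = 0.0179).

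**Figure D5:**
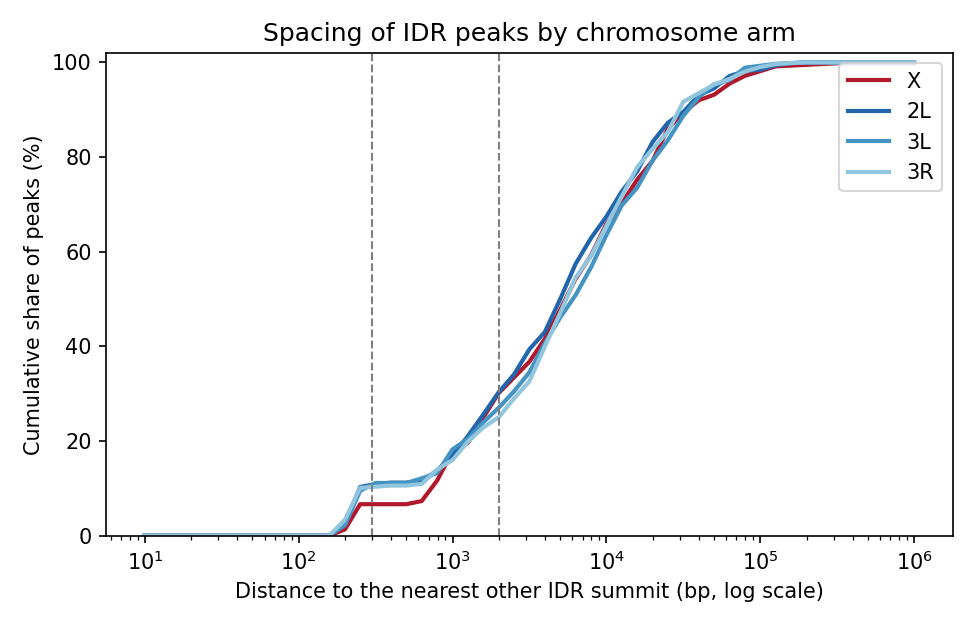
Cumulative share of IDR peaks (%, y axis) by distance to the nearest other summit (bp, log scale, x axis), 1 line per arm, with dashed lines at 300 and 2000 bp. At 300 bp the X stands at 6.66% and the others between 10.3% and 11.1%, and at 2000 bp the X stands at 30.1%. No line has risen at 158 bp.

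The densest stretches of 50 kb held 12 peaks, near the 12 to 13 of the other arms. The stretch chrX:7292000-7341999 lies inside CG1677 and holds the 12 peaks counted for that gene above. Of these, 11 were in introns, and some lay also in Atg5, CBP or Dok or near brk, the repressor of Dpp target genes. At chrX:7692202-7742201 the 12 lay around CHES-1-like and Pdp. At chrX:2262653-2312652 there were 11, of which 6 were in introns, in and around Raf. The stretch at chrX:2123293-2173292 held 10, of which 6 were at promoters, among them those of ph-d, ph-p and wapl. At chrX:1830819-1880818 there were 9, around prage, deltaCOP and Lamtor5, and as many at chrX:6844112-6894111, around CG14434 and Tmf, and at chrX:6969472-7019471, around the innexin genes ogre, Inx2 and Inx7.

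Between neighbouring summits, the longest gap of the X was 1206 kb, from the peak at flam to one at fog near the end of the arm that joins the centromere (chrX:21631678-22837603), and took up 5.12% of the arm. The longest gap between neighbouring summits was 490 kb on 2L, 630 kb on 3L and 378 kb on 3R. The ends of the arms are not counted in these gaps: 3R had no summit before position 4214294, 3L none after 22878904 of its 28110227 bp and 2L none after 21867482 of its 23513712 bp. The X gap has 38 coding genes, among them S6kII, a ribosomal protein kinase, and tilB. The part of repeated sequence, where reads are hard to place, was not tested. The next 3 were 390, 380 and 375 kb long, at chrX:10936812-11326347 with 39 coding genes including sev, the receptor kinase sevenless, at chrX:14247505-14627540 with 18 including na and mud, and at chrX:12756028-13131349 with 32 including fne and hep. The fifth, chrX:19889618-20236323 of 347 kb, holds 38 coding genes, among them Dop2R, a dopamine receptor, and the repeated Sdic genes. Gaps over 200 kb numbered 19 on the X, 17 on 2L, 11 on 3L and 19 on 3R.

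The signal of X peaks resembled that of the other arms in rank. The upper 1748 of the 3496 peaks held 48.3% of X peaks and 50.5% of the others, a difference of -2.22 points (interval -6.71 to 2.28; Fisher's exact test, adjusted p = 0.501). Of the 100 strongest peaks of the list, 17 were on the X.

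None of the 7 motifs differed in share between X summits and those of the other arms at the threshold. The summit windows that carry TATCGATA, the element bound by DREF and BEAF-32, a CA repeat and a GA repeat are shown for the strongest X peak with each, in the same form as above.
Stt3A intron, chrX:21053270-21053370: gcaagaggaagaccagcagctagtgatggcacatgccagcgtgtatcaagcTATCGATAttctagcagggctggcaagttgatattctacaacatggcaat
Hmt4-20 promoter, chrX:655079-655179: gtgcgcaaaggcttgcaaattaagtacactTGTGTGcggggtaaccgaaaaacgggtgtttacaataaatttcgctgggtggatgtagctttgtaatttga
Raf intron, chrX:2297680-2297780: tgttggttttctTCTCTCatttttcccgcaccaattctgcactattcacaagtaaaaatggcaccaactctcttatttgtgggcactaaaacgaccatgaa
TATCGATA was found at 3.33% of X summits and 3.30% of the others, against 0.333% of X flanks, which are windows of equal length 500 bp to either side. It was found in 18 of the 322 X promoter windows (5.59%) and in 2 of the 279 other windows, while 5.83% of all X windows of this length at coding TSSs had it. The strongest X peak with it, at Stt3A, ranked 1076 in the list. TTAAAA was at 24.8% of X summits, 14.6% of X flanks and 11.5% of X TSS windows. In windows of 100 bp to either side of the summit, its share on the X differed from that on the other arms by -8.17 points, which passed the threshold (Fisher's exact test, adjusted p = 0.00176). The site AAGTCA was at 5.66% of X summits against 4.66% of flanks and 5.89% of TSS windows, and AGGTCA at 2.00% against 2.08% and 1.50%. ACACTG was at 8.65% against 4.16% and 10.3%.

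The CA and GA repeats were rarer at X summits than beside them. CACACA was at 7.65% of X summits, 14.1% of X flanks and 329 of the 3275 X TSS windows, and on the other arms at 7.20% of summits and 10.3% of flanks. GAGAGA was at 3.83% of X summits, 7.07% of flanks and 4.31% of TSS windows, and on the other arms at 4.84% of summits and 5.02% of flanks. The mean GC content was 37.4% at X summits and 43.1% in X flanks, and 37.4% at the summits of the other arms. Summits and flanks differ in base composition, and its part in the motif shares was not tested.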

How the data were processed

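Peak lists of 3 biological replicates were analysed. For dm6, the authors deposited relaxed lists of 30000 peaks per replicate and for pooled reads, and the list filtered by IDR, per the README text that came with each sample. That text names 1 further input file whose role it does not state. Aligner, peak caller: not given in the sources used here. Column 7 is a deposited signal per peak by the authors' caller, with no common scale between lists. The dm3 lists served as an alternative.

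Sequence was RefSeq Release 6, and the annotation Ensembl release 115 (BDGP6.54), without transposable elements. Summits in more than 1 class took the earliest of promoter, 5' UTR, coding sequence, 3' UTR, any other exon, intron and intergenic. Arms 2R and 4 were not compared here. Shares were compared by two-sided Fisher's exact tests with Benjamini-Hochberg adjustment over 14 tests (42 for single arms) at 0.05, using Python 3.11.15, numpy 2.4.6, pandas 2.3.3, scipy 1.17.1 and matplotlib 3.10.9. The code was tested on simulated data. Genes named were those with the coding TSS nearest to the 25 strongest X peaks, list members on the X (up to 4 with the highest signal described by value), and genes at the 5 longest gaps and 5 densest stretches; others were chosen after their values were seen. Of 202 listed symbols, 200 matched the annotation, 12 of them through an older symbol in RefSeq. The members and lists were chosen with earlier results of these data known.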

Additional observations from a re-analysis of the deposited data

How the results depend on the processing

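Of 73 alternative values for the 7 main results with a test, 63 kept their direction and side of the threshold, among them all those for the promoter and intron shares. Where a replicate was left out, the IDR list was cut to peaks found in both other top lists, without calling peaks anew. For agreement, the share of IDR peaks found in both other top lists was itself the value. The density ratio of 0.967 was 0.870 on the span from the first to the last summit of each arm, and 0.908 on that span in the dm3 list. It was 0.910 against 2L alone, and 0.951 to 1.02 when 1 replicate was left out, above 1 without replicate 3. Gene promoter coverage against 2L alone (-1.09 points) and the intergenic share against 3R alone (-0.129) did not pass. The close spacing share (2.86) passed among the upper 1748 peaks (8.03), with near-duplicate summits dropped (6.17) and without replicate 2 or 3 (4.65 to 6.27 over the replicates left out), and changed sign against 2L alone (-0.187). Agreement (0.974) changed sign with summits matched within 300 bp (-0.829), ran from -1.04 to 3.54 as each replicate was left out, and passed on whole relaxed lists (3.04). Motif differences that changed sign, none past the threshold, were TATCGATA among the upper 1748 peaks (-1.31), without near duplicates (-0.347), in 100 bp windows (-0.470), against 2L (-0.00555) and 3R (-0.523), and from -1.86 to -0.307 without 1 replicate; CACACA among the upper peaks (-0.251), without near duplicates (-0.0917), in 25 bp windows (-0.0980) and against 3L (-0.842); TTAAAA among the upper peaks (0.356); and AGGTCA (-0.415), ACACTG (1.08) and GAGAGA (0.192) in 100 bp windows. TTAAAA passed in 100 bp windows (-8.17). The causes were not tested. No paired analysis was possible because there is 1 group, beyond the comparison of arms within each replicate given above. Unknown depth limits all of these shares.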
